A study of Mus musculus with 12 samples.

Results

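The integrated stress response genes of mouse liver described here are the transcription factor gene Atf4 and 9 genes of its network: Atf3, Atf5, Ddit3, Chac1, Trib3, Asns, Sesn2, Ppp1r15a and Slc1a4. They were chosen by symbol, as the rows of the expression tables whose Ensembl identifier carries one of these names in the GRCm38 annotation, and 10 of 10 were found among 22381 identifiers with a value. RNA sequencing covered livers of female C57BL/6 mice in 4 groups of 3 libraries. The first group received a high fat, high sugar diet (HFHS) for 14 weeks and intravenous curcumin liposomes at weeks 12 and 13. The second received the same diet and calcitriol liposomes, which carry the hormonal form of vitamin D, on the same schedule. The third, untreated HFHS, received the diet alone. The fourth is titled CNT. Its labels repeat the HFHS diet of the other groups and add nothing else, so how CNT animals differed is not given in the sources used here. The design text gives the livers as taken 2 weeks after the first treatment. No group given empty liposomes was analysed here, so the cargo, the liposome and the injection cannot be told apart. Nothing in the labels ties each library to its own mouse, and the p-values measure only the spread between these samples, which may be technical.

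The integrated stress response starts when kinases that sense misfolded protein in the endoplasmic reticulum, lack of amino acids, viral RNA or lack of heme phosphorylate the translation factor eIF2. General protein synthesis then slows while translation of the Atf4 message increases, so that the factor is controlled to a large extent at the level of translation, which the amount of messenger RNA does not show. ATF4 binds, with partners of the C/EBP family, to composite elements in genes for amino acid supply, for other transcription factors and for feedback on eIF2. In liver the pathway responds to dietary protein and to endoplasmic reticulum stress.

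The values are log2 expression levels as deposited by the authors, so 1 unit is nominally a 2-fold difference, and they carry no read counts. The depth of each library is therefore unknown and no counting interval can be given. How they were transformed is not named in the sources used here. Their form is that of a transformation that shrinks the differences of weak genes, in which case the fold changes given for genes with low values are smaller than the true ones. The hepatocyte gene Alb lay between 19.65 and 20.72 in all libraries, as the tissue label has it. Levels of different genes are not compared, because the values are not given per length. Of the 10 genes, 9 lay above the filter of 3.32, which is log2 of 10, in all 12 libraries and were among the 12637 genes tested. Asns reached it in 1 library and was not tested. Group means were compared with limma, a linear model over all 12 libraries, with adjustment by the Benjamini-Hochberg method over all genes tested and a threshold of 0.05.

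Across the 4 groups the members did not move as a block. Chac1 was high in both liposome groups, and Slc1a4 was high in untreated HFHS livers. Atf4 itself stayed within a span of 9.78 to 10.39 over 12 libraries.

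In untreated HFHS against CNT livers 1 of the 9 tested genes passed in limma, where 11.9% of all genes tested passed (6.55% higher and 5.36% lower). An unadjusted p under 0.05 was reached by 3 of the 9 and by 31.9% of all genes. In calcitriol against untreated HFHS livers 1 gene rose and 1 fell, where 2.21% of all genes passed (0.973% higher and 1.23% lower), and 5 of the 9 and 21.3% of all genes had an unadjusted p under 0.05. In calcitriol against CNT livers 1 of 9 rose, where 4.04% of all genes passed (1.77% higher and 2.27% lower), and 3 of the 9 and 23.4% of all genes had an unadjusted p under 0.05. These shares are the background for reading each count.

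None of the 9 passed in curcumin against untreated HFHS livers in limma, where 0.301% of all genes passed (0.15% higher and 0.15% lower). There 5 of the 9 and 24.7% of all genes had an unadjusted p under 0.05. Same-numbered curcumin and untreated HFHS libraries deviated together (correlations of 0.16 to 0.32), though the labels give no pairing. Of their different-numbered pairs 0 of 6 correlated above 0.1, while 4 of 6 did for curcumin and CNT (up to 0.32). With the replicate number as a block 2 of the 9 passed in curcumin against untreated HFHS, Chac1 and Slc1a4, and 242 of all genes in place of 38. That block is an effect shared by all 4 groups, while same-numbered curcumin and CNT libraries correlated at -0.38 to -0.02. None passed in curcumin against CNT livers in limma, where 3.51% of all genes passed (1.6% higher and 1.91% lower), and 3 of the 9 and 18.6% of all genes had an unadjusted p under 0.05. Between curcumin and calcitriol livers none of the 9 and 0% of all genes passed in limma, with 0 of the 9 and 14.8% of all genes at an unadjusted p under 0.05.

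**Figure D1:**
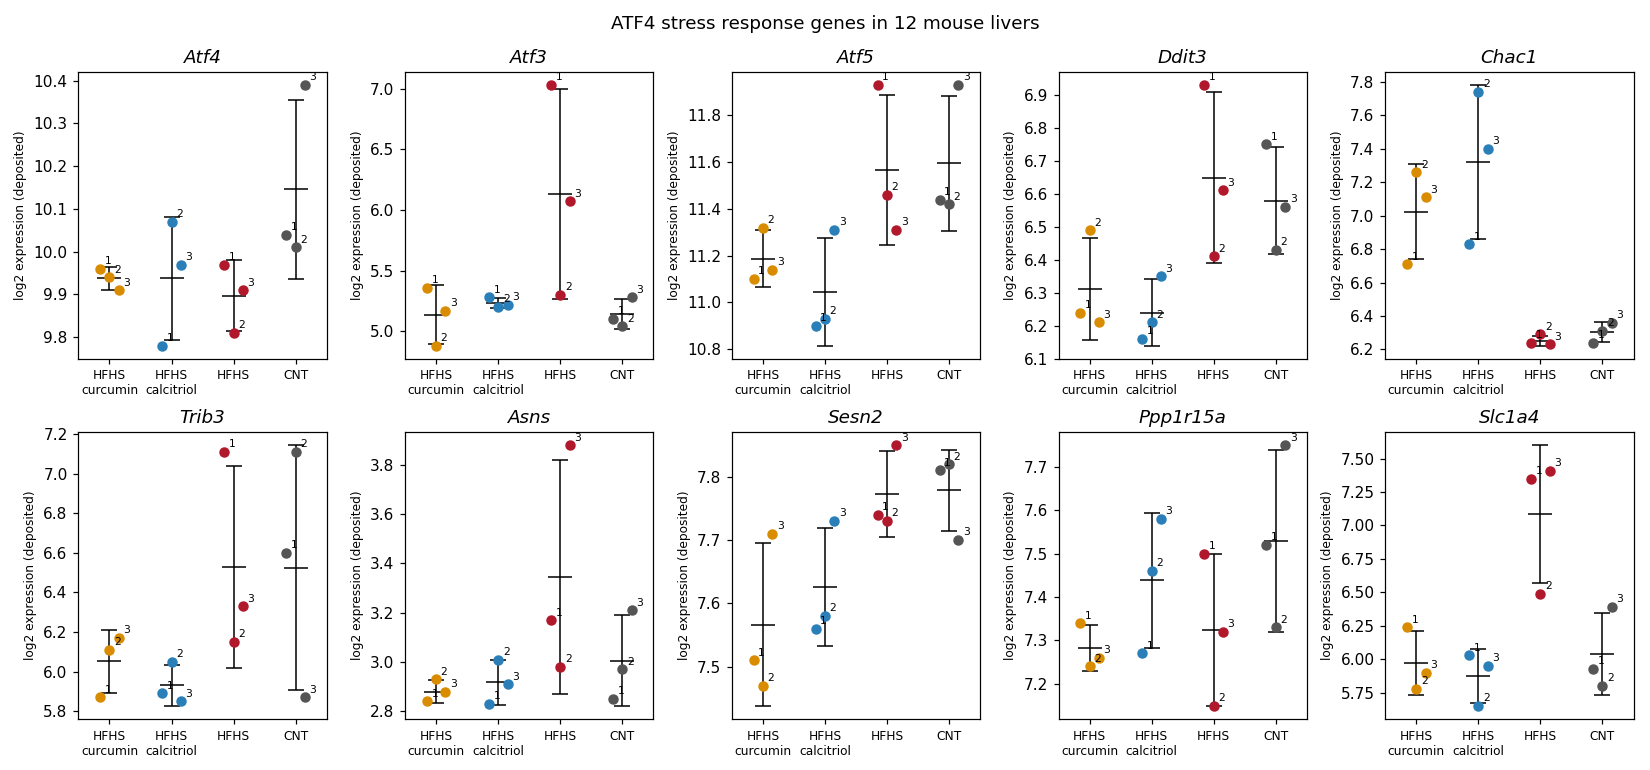
Log2 expression as deposited (vertical axis, a separate range for each gene) of the 10 genes in the 4 groups (horizontal axis). Points are libraries with their replicate number, and black bars are the group mean ± SD (n = 3). All 6 Chac1 values of the liposome groups, from 6.71 to 7.74, lie above the 6 values of the untreated HFHS and CNT groups, and Slc1a4 is highest in HFHS replicates 1 and 3.

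Chac1 (ENSMUSG00000027313, GRCm38 chr2:119351229-119354381, plus strand) encodes an enzyme that cleaves glutathione and is a well known target of ATF4. Its log2 value was 6.71, 7.26 and 7.11 in curcumin replicates 1, 2 and 3 and 6.83, 7.74 and 7.40 in calcitriol replicates 1, 2 and 3. It was 6.24, 6.29 and 6.23 in untreated HFHS replicates and 6.24, 6.31 and 6.36 in CNT replicates. Every library of a liposome group was above every library of the 2 groups without liposomes, and those 6 lay close together. Chac1 rose in calcitriol livers, to 7.32 ± 0.46 against 6.25 ± 0.03 in untreated HFHS livers (log2, mean ± SD, n = 3 each), a log2 change of 1.07 ± 0.19 SE or 2.10-fold (limma, adjusted p = 0.027). It also rose in calcitriol livers against CNT, at 7.32 ± 0.46 and 6.30 ± 0.06, with a log2 change of 1.02 ± 0.19 SE (limma, adjusted p = 0.0194).

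With curcumin Chac1 averaged 7.02 ± 0.29, against 6.25 ± 0.03 in untreated HFHS livers, a log2 change of 0.77 ± 0.19 SE that did not pass (limma, adjusted p = 0.0724) but passed with the replicate block (0.0403). Against CNT the log2 change with curcumin was 0.72 ± 0.19 SE (adjusted p = 0.065). The direct difference in Chac1 between curcumin and calcitriol livers was -0.30 on the log2 scale, with a 95% confidence interval from -0.72 to 0.12 (adjusted p = 0.485). The interval holds 0 as well as a lower level with curcumin. The curcumin and calcitriol comparisons share the untreated HFHS libraries. Untreated HFHS and CNT livers differed in Chac1 by -0.05 (interval -0.47 to 0.37). The calcitriol calls depended on single libraries. Against untreated HFHS the adjusted p was 0.085 and 0.0715 without HFHS replicates 1 and 3, and 0.0996 and 0.12 without calcitriol replicates 2 and 3. Against CNT it was 0.0647 and 0.0776 without calcitriol replicates 2 and 3, and 0.0542 and 0.0729 without CNT replicates 1 and 2. The log2 change stayed between 0.81 and 1.32 when single libraries were left out. With only the 2 groups in the fit the calcitriol change against untreated HFHS had an adjusted p of 0.138, and with HFHS replicate 2 as the lone untreated HFHS library it was 1.04 (0.301). With curcumin Chac1 passed against untreated HFHS without HFHS replicate 2 (0.79, adjusted p = 0.0276), and against CNT with only the 2 groups in the fit (0.015). Without HFHS replicate 2, 3207 of the 12637 genes passed with curcumin against untreated HFHS, in place of 38. In the fit of 2 groups 644 genes passed with curcumin against CNT, in place of 443.

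Markers of red blood cells also differed between the groups with and without liposomes. The sum of 6 erythroid markers on the linear scale, all above 0 in the files, was 10700 to 11700 in curcumin livers, 11100 to 13700 in calcitriol livers, 4550 to 8440 in untreated HFHS livers and 4120 to 8830 in CNT livers. The liposome groups lay above the groups without liposomes. Within the calcitriol group the order was opposite to that of Chac1, with sums of 13700, 11100 and 11700 in replicates 1, 2 and 3 beside Chac1 values of 6.83, 7.74 and 7.40. Within the curcumin group replicate 2 was highest in both, with sums of 11500, 11700 and 10700 beside Chac1 values of 6.71, 7.26 and 7.11. The part of these cells in the Chac1 values was not tested. In bulk tissue a different number of cells of a type and a different amount of RNA per cell cannot be told apart.

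The upstream sequence of Chac1 is shown because this member stood apart in the liposome groups and holds a composite element of the kind ATF4 binds. The 250 bases before the annotated start (RefSeq, GRCm38.p6, chr2:119350992-119351241, plus strand) are given 5′ to 3′, with a match to TGATGNAA on the opposite strand in capitals. The match begins 193 bases before the start.
Chac1: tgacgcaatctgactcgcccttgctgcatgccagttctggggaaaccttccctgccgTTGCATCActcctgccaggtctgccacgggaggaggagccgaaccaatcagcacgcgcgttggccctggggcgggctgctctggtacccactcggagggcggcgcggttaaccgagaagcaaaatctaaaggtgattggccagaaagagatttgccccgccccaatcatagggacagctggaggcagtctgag

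The same 8-letter motif, TGATGNAA searched on both strands of the 300 bases from 250 before to 50 after each start, was found for 5 of the 10 genes. It occurred in 3.97% of 32851 promoter windows of that length. A member was counted if any of its windows matched, so the share of genes and the share of windows are unlike measures. The members were listed as genes of the ATF4 network, and enrichment was not tested. The Atf3 match belongs to a start inside the annotated gene. Short stretches around the other 4 matches are shown for comparison with Chac1, on the strand of the gene and with the match in capitals. They lie at chr1:191183425-191183454 (Atf3), chr6:7693214-7693243 (Asns), chr11:20332699-20332728 (Slc1a4) and chr2:152344028-152344057 (Trib3), all on the minus strand.
Atf3: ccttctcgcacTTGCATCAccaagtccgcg
Asns: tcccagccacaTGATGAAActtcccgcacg
Slc1a4: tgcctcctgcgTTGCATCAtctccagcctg
Trib3: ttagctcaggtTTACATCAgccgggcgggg
The match of Slc1a4 begins 4 bases before its start and that of Asns 23 bases before. Atf3, Chac1 and Slc1a4 hold the same 8 letters. Chac1 was high in the liposome groups, while Atf3 (6.13) and Slc1a4 (7.09) had their highest group mean in untreated HFHS. Whether the match bears on these values was not tested. A match is a description of letters and not a bound site.

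Slc1a4 (ENSMUSG00000020142, chr11:20302180-20332713, minus strand) encodes a membrane transporter for alanine, serine and other neutral amino acids. Its log2 value was 6.24, 5.78 and 5.90 in curcumin replicates 1, 2 and 3 and 6.03, 5.65 and 5.95 in calcitriol replicates. It was 7.35, 6.49 and 7.41 in untreated HFHS replicates and 5.93, 5.80 and 6.39 in CNT replicates. Untreated HFHS did not overlap with any other group, with HFHS replicate 2 just above CNT replicate 3. Slc1a4 rose in untreated HFHS livers, to 7.09 ± 0.51 against 6.04 ± 0.31 in CNT livers, a log2 change of 1.05 ± 0.24 SE or 2.06-fold (limma, adjusted p = 0.0236). It fell in calcitriol livers, to 5.88 ± 0.20 against 7.09 ± 0.51 in untreated HFHS livers, a log2 change of -1.21 ± 0.24 SE (limma, adjusted p = 0.0364).

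With curcumin Slc1a4 averaged 5.97 ± 0.24, against 7.09 ± 0.51 in untreated HFHS livers, a log2 change of -1.11 ± 0.24 SE at an adjusted p of 0.0536 in limma, and of 0.0316 with the replicate block. Calcitriol and curcumin livers did not pass against CNT, with log2 changes of -0.16 (interval -0.69 to 0.36) and -0.07 (-0.59 to 0.45). Curcumin and calcitriol livers differed by 0.10 (interval -0.42 to 0.62). HFHS replicates 1 and 3 carried most of the difference. With HFHS replicate 2 as the lone untreated HFHS library, assumed to vary like the other groups, the log2 change against CNT was 0.45 (adjusted p = 0.527), and that of calcitriol against HFHS was -0.62 (adjusted p = 0.408). The call against CNT was lost without HFHS replicates 1 or 3 (adjusted p = 0.0905 and 0.0907) and without CNT replicates 1 or 2 (0.0641 and 0.088). That of calcitriol against HFHS was lost without HFHS replicates 1 or 3 (0.123 and 0.093), without calcitriol replicates 1, 2 or 3 (0.0534, 0.136 and 0.126) and with no filter on low values (0.0508). With only the 2 groups in the fit both calls were lost (0.127 against CNT and 0.138 for calcitriol). Without HFHS replicate 2 curcumin passed as well (-1.41, adjusted p = 0.000451), as it did after quantile normalization (-1.07, 0.0461). Under these settings 3207 and 162 of all genes passed with curcumin against untreated HFHS, in place of 38.

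Stellate cell, matrix and bile duct markers were, like Slc1a4, lowest in replicate 2 among the untreated HFHS libraries. The mean log2 value of 6 stellate cell and matrix markers, all above 0, was 8.56, 7.40 and 8.60 in HFHS replicates 1, 2 and 3. Their linear sum was 1420 to 1680 in curcumin livers, 1240 to 1590 in calcitriol livers, 1580 to 5330 in untreated HFHS livers and 1140 to 1450 in CNT livers. The 4 cholangiocyte markers, all above 0, summed to 238, 110 and 162 in HFHS replicates 1, 2 and 3. Their range was 117 to 136 in curcumin livers, 93 to 123 in calcitriol livers, 110 to 238 in untreated HFHS livers and 113 to 138 in CNT livers. The mean log2 value of the macrophage markers was also lowest in replicate 2 (9.35, 8.17 and 8.63 in HFHS replicates 1, 2 and 3). So were those of lymphocyte (4.13, 3.77 and 4.23) and neutrophil markers (3.76, 3.35 and 3.87). Hepatocyte markers were highest in replicate 2 (15.57, 15.95 and 15.46). Erythroid markers were lowest in replicate 1, and endothelial markers were level in replicates 1 and 2. For 6 macrophage markers, all above 0, the sum was 4450 to 5440 in curcumin livers, 5140 to 6250 in calcitriol livers, 4650 to 7330 in untreated HFHS livers and 3400 to 4470 in CNT livers, with 7330, 4850 and 4650 in HFHS replicates 1, 2 and 3. The 6 adipocyte markers, of which 2 reached the filter, summed to 139 to 152 in curcumin livers, 105 to 170 in calcitriol livers, 124 to 1210 in untreated HFHS livers and 101 to 112 in CNT livers, with replicate 3 highest in untreated HFHS. The adipocyte sums were 159, 124 and 1210 in HFHS replicates 1, 2 and 3, so replicate 2 was lowest here too. Cfd, an adipocyte gene, stood at 9.18 in HFHS replicate 3 against 3.35 and 3.62 in HFHS replicates 1 and 2. The part of these cells in the Slc1a4 values was not tested.

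**Figure D2:**
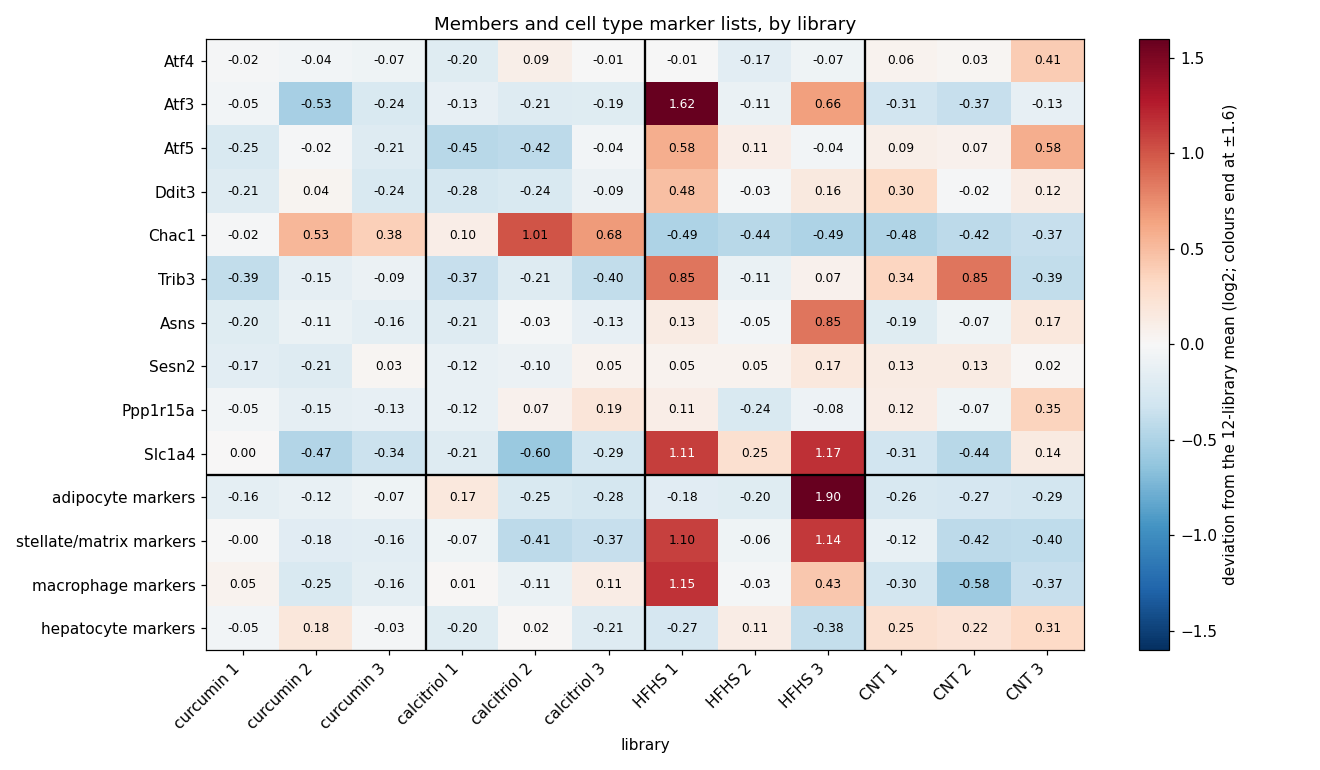
Deviation of each gene, and of the mean of 4 marker lists, from its own mean over the 12 libraries (log2, printed in each cell; colours end at ±1.6). Columns are libraries, grouped by treatment. Atf3 (1.62) and Slc1a4 (1.11) in HFHS replicate 1 stand beside macrophage and matrix markers that are high in the same library, and Asns (0.85) in HFHS replicate 3 stands beside adipocyte markers (1.90). In calcitriol replicate 1 Asns (-0.21) stands beside the next highest adipocyte deviation (0.17).

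Among the transcription factors, Atf4 (ENSMUSG00000042406, chr15:80255184-80257541, plus strand) had log2 values of 9.96, 9.94 and 9.91 in curcumin replicates and 9.78, 10.07 and 9.97 in calcitriol replicates. It had 9.97, 9.81 and 9.91 in untreated HFHS replicates and 10.04, 10.01 and 10.39 in CNT replicates. CNT held the highest library and untreated HFHS lay just below CNT without overlap. The log2 change of HFHS against CNT was -0.25 ± 0.10 SE (limma, adjusted p = 0.121), and those of curcumin and calcitriol against untreated HFHS were both 0.04 (intervals -0.18 to 0.26). Under other settings these changes took either sign, between -0.02 and 0.13.

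Atf3 (ENSMUSG00000026628, chr1:191170296-191218039, minus strand) encodes a stress-induced repressor that ATF4 activates. Its log2 value was 5.36, 4.88 and 5.17 in curcumin replicates and 5.28, 5.20 and 5.22 in calcitriol replicates. It was 7.03, 5.30 and 6.07 in untreated HFHS replicates and 5.10, 5.04 and 5.28 in CNT replicates. HFHS replicate 1 stood far above all others, and HFHS replicate 2 was level with the other groups. Atf3 did not pass in any comparison: the log2 change was 0.99 ± 0.32 SE in untreated HFHS against CNT (limma, adjusted p = 0.0627), -1.0 ± 0.32 with curcumin (0.111) and -0.90 ± 0.32 with calcitriol against untreated HFHS (0.14). Without HFHS replicate 2 these became 1.41 (0.00123), -1.41 (0.00179) and -1.32 (0.00301). Of all genes 3717, 3207 and 2194 then passed in these comparisons, in place of 1505, 38 and 279.

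Atf5 (ENSMUSG00000038539, chr7:44812256-44816658, minus strand), a factor related to ATF4 and tied to mitochondrial stress, had 11.10, 11.32 and 11.14 in curcumin replicates and 10.90, 10.93 and 11.31 in calcitriol replicates. It had 11.93, 11.46 and 11.31 in untreated HFHS replicates and 11.44, 11.42 and 11.93 in CNT replicates. Both liposome groups lay below CNT without overlap. The log2 change was -0.55 ± 0.18 SE with calcitriol and -0.41 ± 0.18 SE with curcumin against CNT (limma, adjusted p = 0.0984 and 0.251), so neither passed. Atf5 overlaps Nup62 and Il4i1 on the opposite strand.

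Ddit3 (ENSMUSG00000025408, chr10:127290774-127296288, plus strand) encodes CHOP, which promotes cell death under lasting stress. It had 6.24, 6.49 and 6.21 in curcumin replicates, 6.16, 6.21 and 6.35 in calcitriol replicates, 6.93, 6.41 and 6.61 in untreated HFHS replicates, and 6.75, 6.43 and 6.56 in CNT replicates. Calcitriol livers lay below untreated HFHS and below CNT without overlap. The log2 change with calcitriol was -0.41 ± 0.13 SE against untreated HFHS (limma, adjusted p = 0.113) and -0.34 ± 0.13 SE against CNT (0.155). Against untreated HFHS it passed for both treatments without HFHS replicate 2, at -0.53 with calcitriol (0.0161) and -0.46 with curcumin (0.0241). Of all genes 2194 passed with calcitriol and 3207 with curcumin under that omission, in place of 279 and 38. Ddit3 overlaps Mars, the methionyl tRNA synthetase gene, on the opposite strand. The sources used here do not give whether counting used strand, so reads of Atf5 and Ddit3 and of these partners cannot be told apart.

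The feedback genes showed no call. Trib3 (ENSMUSG00000032715, chr2:152337422-152344032, minus strand) encodes a pseudokinase that restrains ATF4 and insulin signalling. It ranged from 5.87 to 6.17 in curcumin livers, 5.85 to 6.05 in calcitriol livers, 6.15 to 7.11 in untreated HFHS livers and 5.87 to 7.11 in CNT livers. The 2 groups without liposomes were the more spread, with SDs of 0.51 in untreated HFHS and 0.62 in CNT against 0.16 with curcumin and 0.10 with calcitriol. The log2 change with calcitriol against untreated HFHS was -0.60 ± 0.29 SE (limma, adjusted p = 0.26). Ppp1r15a (ENSMUSG00000040435, chr7:45522916-45526268, minus strand) encodes GADD34, the stress-induced subunit that directs a phosphatase to eIF2. It averaged 7.28 ± 0.05 in curcumin livers, 7.44 ± 0.16 in calcitriol livers, 7.32 ± 0.18 in untreated HFHS livers and 7.53 ± 0.21 in CNT livers. The lowest adjusted p of Ppp1r15a in the 6 comparisons was 0.255, in untreated HFHS against CNT (-0.21 ± 0.12 SE). It overlaps Tulp2 on the opposite strand.

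Sesn2 (ENSMUSG00000028893, chr4:132492032-132510501, minus strand) encodes a sestrin, a leucine-binding inhibitor of the growth kinase mTORC1. It had 7.51, 7.47 and 7.71 in curcumin replicates, 7.56, 7.58 and 7.73 in calcitriol replicates, 7.74, 7.73 and 7.85 in untreated HFHS replicates and 7.81, 7.82 and 7.70 in CNT replicates. Curcumin livers lay below untreated HFHS without overlap, by -0.21 ± 0.08 SE (limma, adjusted p = 0.151). Asns (ENSMUSG00000029752, chr6:7675169-7693254, minus strand), asparagine synthetase, had low values: 2.84, 2.93 and 2.88 in curcumin replicates, 2.83, 3.01 and 2.91 in calcitriol replicates, 3.17, 2.98 and 3.88 in untreated HFHS replicates and 2.85, 2.97 and 3.21 in CNT replicates. HFHS replicate 3, a library with high adipocyte and matrix markers, stood alone. Matrix markers were about as high in HFHS replicate 1 (mean log2 value 8.56 beside 8.60), where Asns was 3.17. The next highest adipocyte mean was in calcitriol replicate 1 (3.07 beside 4.80), where Asns was 2.83. The part of such cells in the Asns value was not tested. With no filter on low values the log2 change of Asns in untreated HFHS against CNT was 0.34 (adjusted p = 0.348).

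**Figure D3:**
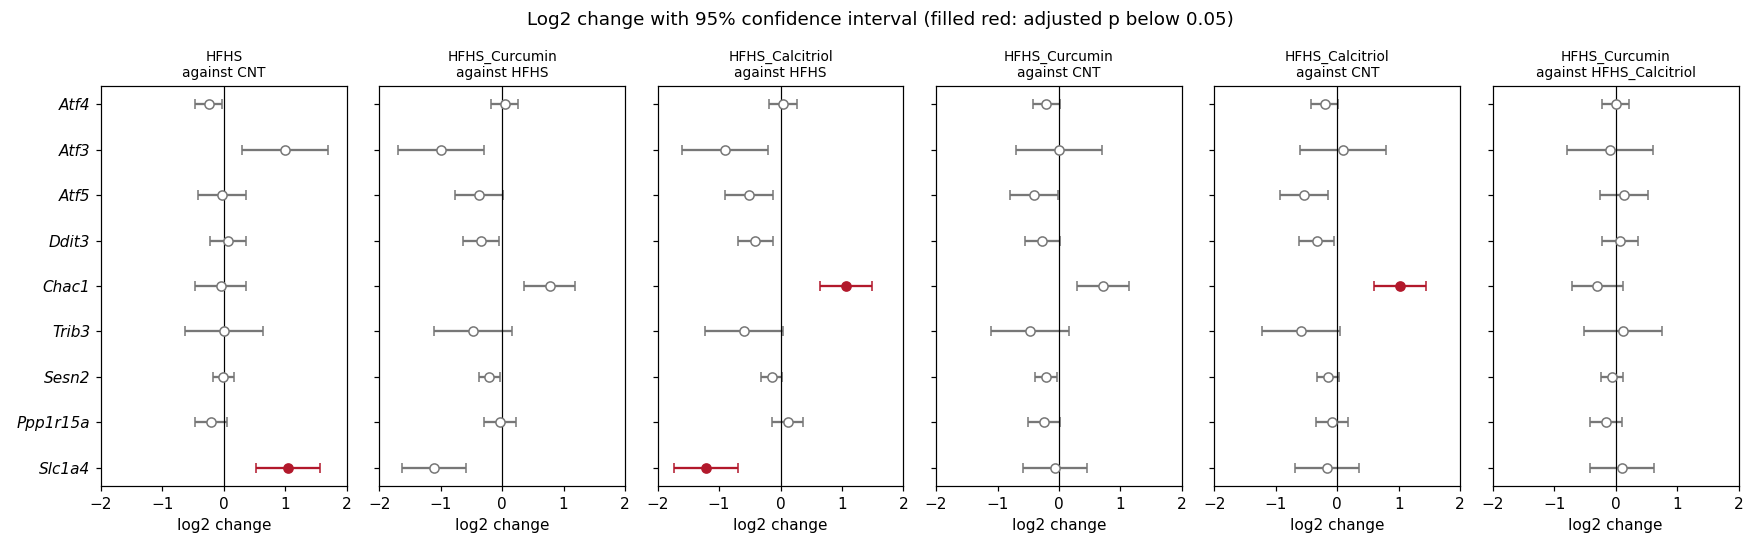
Log2 change (horizontal axis) with its 95% confidence interval for the 9 tested genes in the 6 comparisons of groups, from limma. Filled red points passed an adjusted p of 0.05. Slc1a4 passed in 2 panels and Chac1 in 2, while the interval of Atf4 runs from -0.47 to -0.03 in untreated HFHS against CNT and includes 0 in the other 5 panels.

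The members' counts can be read beside all genes. In untreated HFHS against CNT 4 of the 9 tested genes had changes above 0 and 5 below, with a median of -0.01, as over all genes tested (-0.01). In calcitriol against untreated HFHS 3 were above 0 and 6 below, with a median of -0.41, against 0.00 over all genes. In curcumin against untreated HFHS 2 were above 0 and 7 below, with a median of -0.34, against 0.00 over all genes. The last 2 comparisons share the untreated HFHS libraries. Groups without overlap were counted over all 10 genes. In calcitriol against untreated HFHS, Chac1 was higher and Slc1a4, Atf3, Trib3 and Ddit3 were lower without overlap, where 12.6% of all genes tested were higher and 11.8% lower in that sense. In curcumin against untreated HFHS, Chac1 was higher and Slc1a4, Sesn2 and Asns were lower, where the shares over all genes were 11.9% and 11.6%. In untreated HFHS against CNT, Atf3 and Slc1a4 were higher and Atf4 was lower, where the shares were 12.7% and 14.1%. In calcitriol against CNT, Chac1 was higher and Atf5 and Ddit3 were lower, where the shares were 14.9% and 17.4%. In curcumin against CNT, Chac1 was higher and Atf5 and Atf4 were lower, where the shares were 12.9% and 12.7%. Between curcumin and calcitriol none of the 10 was without overlap, where the shares were 14.9% and 13.8%.

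Other genes of the pathway were taken from 6 lists: eIF2 kinases and subunits, bZIP partners, amino acid synthesis, amino acid transport, tRNA synthetases and other known targets. Of 77 genes 70 were tested. In untreated HFHS against CNT 4 rose and 6 fell, which is 14.3% of them beside 11.9% of all genes. There 29 of the 70 and 31.9% of all genes had an unadjusted p under 0.05. The largest rise was in Fgf21, a hepatic hormone and ATF4 target, at 6.84, 6.20 and 6.18 in untreated HFHS replicates against 5.50, 5.28 and 5.34 in CNT replicates (log2 change 1.04 ± 0.17 SE, limma adjusted p = 0.00951). Fgf21 still passed when any single library was left out (highest adjusted p = 0.0444). Its call was lost with only the 2 groups in the fit (0.104) and with HFHS replicate 2 as the lone untreated HFHS library (0.83, adjusted p = 0.0643). With calcitriol against untreated HFHS Fgf21 did not pass (-0.62 ± 0.17 SE, 0.0772), and passed without HFHS replicate 2 (-0.72, 0.0174). Under that omission 2194 of all genes passed with calcitriol against untreated HFHS, in place of 279. In untreated HFHS against CNT the C/EBP gene Cebpd rose by 0.53 ± 0.14 SE (0.0345). Jun (0.77, 0.0449) and Ddit4, an inhibitor of mTORC1 (0.64, 0.0483), rose as well. Jun and Ddit4 were named after their values were seen.

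Ppp1r15b, the constitutive partner of the eIF2 phosphatase, fell in untreated HFHS livers, to 10.75, 11.00 and 10.86 against 11.30, 11.27 and 11.23 in CNT livers (log2 change -0.40 ± 0.07 SE, limma adjusted p = 0.0135). It was higher with calcitriol, at 11.18, 11.20 and 11.19, than in untreated HFHS (0.32 ± 0.07 SE, adjusted p = 0.0478). Curcumin livers, at 11.10, 11.12 and 11.09, also lay above untreated HFHS without overlap, but the gene did not pass there. The amino acid transporter Slc43a1 (-0.79, adjusted p = 0.014), the threonyl tRNA synthetase Tars (-0.43, 0.0161), Cebpa (-0.45, 0.0361), the tRNA exporter Xpot (-0.25, 0.0364) and Cth, which makes cysteine (-0.68, 0.0427), also fell in untreated HFHS against CNT. These calls were lost without single libraries. Without HFHS replicate 1 the adjusted p was 0.0531 for Ppp1r15b, 0.0506 for Slc43a1, 0.138 for Cebpa, 0.13 for Cebpd, 0.121 for Xpot, 0.115 for Cth, 0.105 for Jun and 0.165 for Ddit4. Without CNT replicate 2 it was 0.054 for Ppp1r15b, 0.056 for Slc43a1, 0.0545 for Tars, 0.104 for Cebpa, 0.105 for Cebpd, 0.0918 for Xpot, 0.141 for Cth, 0.114 for Jun and 0.146 for Ddit4. HFHS replicate 3 ended the calls of Tars, Cebpa, Cebpd, Xpot, Cth and Jun, CNT replicate 1 those of Cebpa, Cebpd, Xpot, Cth, Jun and Ddit4, and CNT replicate 3 those of Cebpa, Cebpd, Cth, Jun and Ddit4. With only the 2 groups in the fit none of these 9 genes passed in limma (adjusted p from 0.127 to 0.17), nor with HFHS replicate 2 as the lone untreated HFHS library (0.261 to 0.647). Quantile normalization ended the calls of Cebpa, Cebpd, Jun, Cth, Xpot and Ddit4, and leaving out the filter those of Jun, Cth, Xpot and Ddit4.

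With calcitriol against untreated HFHS 2 of the 70 rose and none fell, 2.86% of them beside 2.21% of all genes. Beside Ppp1r15b it was Slc39a14, a zinc transporter induced by endoplasmic reticulum stress, at 12.35, 12.56 and 12.69 in calcitriol livers against 11.96, 12.21 and 11.91 in untreated HFHS livers (0.50 ± 0.11 SE, limma adjusted p = 0.0425). The call of Slc39a14 was lost without HFHS replicates 1 or 3 (0.146 and 0.118) and calcitriol replicates 2 or 3 (0.152 and 0.16). That of Ppp1r15b was lost without HFHS replicates 1 or 3 (0.184 and 0.116) and calcitriol replicates 1, 2 or 3 (0.0982, 0.166 and 0.16), and with no filter (0.0801). With only the 2 groups in the fit both were lost (0.16 for Slc39a14 and 0.165 for Ppp1r15b), as with HFHS replicate 2 alone (0.426 and 0.446). With curcumin against untreated HFHS none of the 70 passed in limma, where 0.301% of all genes passed. An unadjusted p under 0.05 was reached there by 28 of the 70 and by 24.7% of all genes. In curcumin against CNT livers Cebpd (0.56, adjusted p = 0.0484) and Fgf21 (0.68, 0.0489) rose, and the cysteine pathway enzyme Cbs (-0.98, 0.0144) and Gadd45a (-0.56, 0.0165) fell, 5.71% of the 70 beside 3.51% of all genes. Each of these calls was lost without at least 3 of the 6 libraries, omitted singly. Cebpd and Fgf21 lost theirs without each of the 6, with no filter (0.0503 and 0.0556) and after quantile normalization (0.0806 and 0.0631), and Fgf21 also without trend and robust moderation (0.0524), Cbs without curcumin replicates 2 or 3 or CNT replicate 2 (at most 0.0661), and Gadd45a without curcumin replicates 1 or 3 or CNT replicate 2 (at most 0.0691). In calcitriol against CNT livers none of the 70 passed in limma, where 4.04% of all genes passed. There 14 of the 70 and 23.4% of all genes had an unadjusted p under 0.05. That share was reached by 19 of the 70 in calcitriol against untreated HFHS, beside 21.3% of all genes. It was 22 in curcumin against CNT, beside 18.6%, and 11 between curcumin and calcitriol, beside 14.8%.

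The kinase genes Eif2ak3 and Eif2ak4, the serine synthesis gene Psat1 and Gdf15 did not pass. Eif2ak3, which encodes the endoplasmic reticulum kinase PERK, stood at 8.11, 8.04 and 8.08 in curcumin livers and 8.90, 8.32 and 8.79 in untreated HFHS livers (-0.59 ± 0.15 SE, limma adjusted p = 0.0724). Its change was -0.44 ± 0.15 SE with calcitriol (0.118) and 0.45 ± 0.15 SE in untreated HFHS against CNT (0.0605). It passed in each of these without HFHS replicate 2. In the same order 3207, 2194 and 3717 of all genes then passed, in place of 38, 279 and 1505. Eif2ak4, which encodes the amino acid sensor GCN2, changed by -0.07 with curcumin, 0.02 with calcitriol and 0.12 in untreated HFHS against CNT, none past the threshold. Gdf15, a stress hormone, had changes of -0.21, -0.16 and 0.16 in the same comparisons. Psat1, a serine synthesis enzyme, had -0.65 with curcumin, -0.63 with calcitriol and 0.65 in untreated HFHS against CNT (limma, adjusted p = 0.12, 0.132 and 0.0697), with 4.61, 3.95 and 5.13 in untreated HFHS replicates. HFHS replicate 2 thus lay with the other groups for Psat1, as for Atf3. Without it Psat1 passed with curcumin (-0.96, 0.00089), with calcitriol (-0.94, 0.00114) and in untreated HFHS against CNT (0.96, 0.000551). Phgdh and Slc7a11, a serine synthesis enzyme and the cystine transporter, had low values, at 0.79 to 1.15 and 0.78 to 1.02 over the 12 libraries, and were not tested. Of 12 endoplasmic reticulum stress genes such as Hspa5, none passed in any of the 6 comparisons in limma, and 1 to 2 had an unadjusted p under 0.05 in each. Over all genes 0% to 11.9% passed, and 14.8% to 31.9% had an unadjusted p under 0.05. The median log2 change of the 12 genes was -0.13 with curcumin and -0.05 with calcitriol against untreated HFHS. Against CNT it was -0.26 with curcumin (11 of 12 below 0), -0.08 with calcitriol (10 of 12) and 0.02 in untreated HFHS (6 of 12). Over all genes tested the medians against CNT were -0.002 with curcumin, -0.004 with calcitriol and -0.01 in untreated HFHS.

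**Figure D4:**
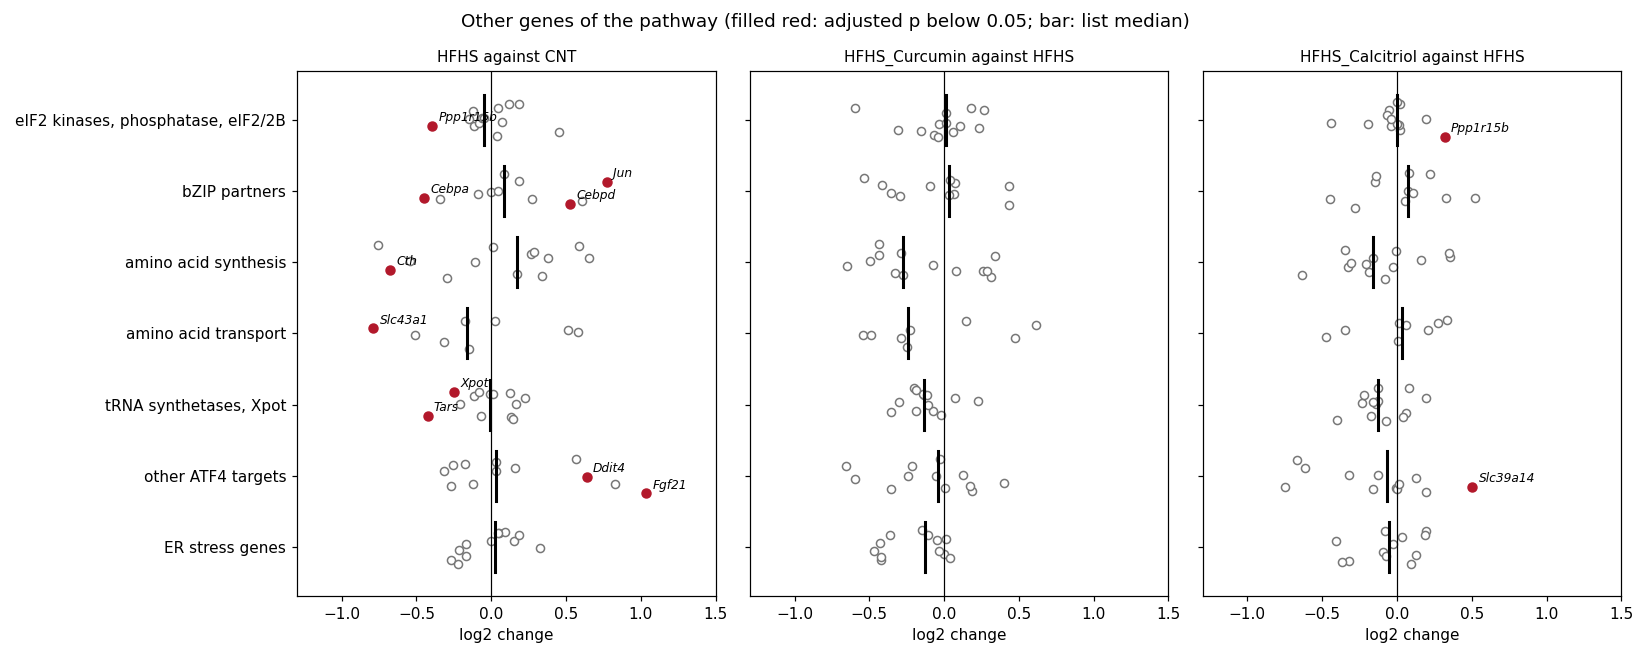
Log2 change (horizontal axis) of each tested gene of 6 pathway lists and of endoplasmic reticulum stress genes in 3 comparisons. Open points did not pass, filled red points passed an adjusted p of 0.05 in limma, and black bars are list medians. The filled points of untreated HFHS against CNT lie on both sides of 0, and none is seen with curcumin.

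Genes with the pattern most like a member were found for the 3 tested members with the largest SD over 12 libraries, by the mean absolute difference of deviations from each gene's own mean. Closest to Chac1, whose own mean absolute deviation was 0.451, were Cyp4a32 (0.208), Cebpb (0.221) and Gde1 (0.224). Cebpb, a C/EBP partner, had 9.17, 9.76 and 9.47 in curcumin livers, 9.38, 9.60 and 9.68 in calcitriol livers, 9.08, 9.31 and 8.71 in untreated HFHS livers and 9.07, 8.92 and 9.11 in CNT livers. Its log2 change did not pass with curcumin (0.44 ± 0.16 SE, limma adjusted p = 0.137) or calcitriol (0.52 ± 0.16 SE, 0.102) against untreated HFHS, and passed in both without HFHS replicate 2 (0.57, 0.0255 with curcumin and 0.66, 0.0178 with calcitriol). Of all genes 3207 passed with curcumin and 2194 with calcitriol under that omission, in place of 38 and 279. Cyp4a32 has close relatives that could share reads. Closest to Slc1a4 (0.445) were Cxcr4 (0.172), Cx3cl1 (0.175) and Cd63 (0.177), and closest to Atf3 (0.380) were Ccdc120 (0.107), Timp1 (0.109) and Elovl7 (0.121). In all of the last 6 genes the highest library was HFHS replicate 1, while Slc1a4 itself was highest in HFHS replicate 3 (7.41 beside 7.35). The genes were picked for likeness over the same 12 libraries, so a high value there is in part given by the choice.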

How the data were processed

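RNA was extracted from flash frozen livers and sequenced as Illumina libraries, per the labels' protocols. The deposited values are log2 expression levels per Ensembl gene, made by the authors. STAR 2.4.0d, DESeq2 1.8.1 and GRCm38 are named, without roles, in the submitters' processing notes, and the transformation, the counter and strand use are not given in the sources used here. Each of 12 files held 45792 identifiers; 23411 at exactly 0 in all libraries were left out. Names and coordinates came from GENCODE M21 and promoter sequences from RefSeq (GRCm38.p6). Genes at 3.32 or more in at least 3 libraries were fitted in limma 3.58.1 (R 4.3.3), with 4 group means, trend and robust moderation and two-sided tests. The fit was tested on simulated data. Groups came from sample titles. Deviations from group means correlated above 0.1 in 3 of 3 same-numbered pairs of curcumin and untreated HFHS libraries (0.16 to 0.32) and of calcitriol and CNT libraries (0.21 to 0.37). The title's replicate number was therefore read as a possible pairing in those comparisons, from the data and not from the labels. Different-numbered pairs above 0.1 were 0 of 6 for curcumin and untreated HFHS and 1 of 6 for calcitriol and CNT. They were 4 of 6 for curcumin and CNT, so correlations of this size also occurred without a shared number. The replicate block fitted each number as an effect shared by all 4 groups, and not as a pairing of 2 groups. Members, gene lists, filter and tests were chosen with earlier results of these data known. All members are named, with called genes of the pathway lists (at most 8 a comparison) and Fgf21, Gdf15, Cebpb, Psat1, Phgdh, Slc7a11, Eif2ak3 and Eif2ak4. Alternatives were other filters, quantile normalization, a simpler variance model, 2 groups only, a replicate block and left-out libraries.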

Additional observations from a re-analysis of the deposited data

How the results depend on the processing

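The adjusted p-values of the members were recomputed under up to 13 alternatives. Of 675 such values of single members, 602 kept their direction and side of the threshold, 24 were lost, 13 were gained and 36 changed sign, all of the last uncalled and at most 0.38 in size. With no filter on low values 1 member was called with calcitriol against untreated HFHS, and 74 genes with curcumin against untreated HFHS and 328 with calcitriol against CNT. The stricter filter gave 120 genes with curcumin against untreated HFHS. Quantile normalization gave 162 genes and 1 member with curcumin and 427 genes with calcitriol against untreated HFHS; it also turned, in untreated HFHS against CNT, Atf5 (0.18), Ddit3 (-0.044), Trib3 (-0.10) and Cebpb (0.048), and Atf4 with curcumin against untreated HFHS (-0.017) and against calcitriol (-0.025). With only the 2 groups in the fit, untreated HFHS against CNT had 13 genes and 0 members, calcitriol against untreated HFHS 0 genes (2310 at an unadjusted p under 0.05 in limma) and 0 members, curcumin against untreated HFHS 0 genes (2467), curcumin against calcitriol 214 genes, and curcumin against CNT 1 member; fewer samples enter that fit. With HFHS replicate 2 as the only untreated HFHS library, the counts were 68 genes and 0 members against CNT, 4 genes and 0 members for calcitriol and 0 genes (743 unadjusted in limma) for curcumin, and signs turned for Ddit3 (-0.17), Trib3 (-0.38), Cebpb (0.27) and Gdf15 (-0.010) against CNT, Ppp1r15a (0.13) and Eif2ak4 (0.0070) with curcumin, and Gdf15 (0.0078) with calcitriol. The cause of these changes was not tested.

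Same-numbered libraries correlated above 0.1 in 9 of 18 pairs (-0.38 to 0.37), and in every pair for curcumin and untreated HFHS and for calcitriol and CNT. In the other 4 comparisons the libraries share only a number. With the replicate number as a block, Chac1 (0.0403) and Slc1a4 (0.0316) passed with curcumin against untreated HFHS, so 2 members and 242 genes were called. In untreated HFHS against CNT the block gave 1862 genes and 2 members, with Atf3 (0.0387) and, of the other genes, Psat1 (0.0359) gained and Ddit4 (0.0636) lost. In curcumin against CNT it gave 416 genes and 1 member, Chac1 (0.0274), and lost Cebpd (0.0673) and Fgf21 (0.0599). Calcitriol gave 280 genes against untreated HFHS, where Ppp1r15b was lost (0.051), and 627 against CNT, where Chac1 passed again (0.00781). Curcumin against calcitriol gave 0 (1971 unadjusted in limma). Adjusted p-values in this paragraph are from limma, and the block changed no other call among the results recomputed.

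Leaving out each library in turn gave 135 to 3717 genes and 0 to 2 members in untreated HFHS against CNT, 0 to 3207 genes and 0 to 4 members with curcumin and 4 to 2194 genes and 0 to 4 members with calcitriol against untreated HFHS, 94 to 949 genes with curcumin against CNT, and 73 to 609 genes and 0 to 1 member with calcitriol against CNT. The highest counts against untreated HFHS came without HFHS replicate 2. Sign changes under these omissions, in untreated HFHS against CNT, ranged over -0.068 to 0.19 (Ddit3), -0.32 to 0.30 (Trib3), -0.044 to 0.016 (Sesn2), -0.21 to 0.14 (Atf5), -0.14 to 0.16 (Cebpb) and -0.052 to 0.32 (Gdf15). With curcumin against untreated HFHS they were -0.13 to 0.048 (Ppp1r15a), -0.34 to 0.0016 (Gdf15) and -0.0036 to 0.079 (Atf4), and with calcitriol -0.023 to 0.12 (Atf4), -0.31 to 0.050 (Gdf15) and -0.032 to 0.084 (Eif2ak4). Between curcumin and calcitriol they were -0.077 to 0.064 (Atf4), -0.038 to 0.20 (Slc1a4), -0.21 to 0.034 (Atf3) and -0.018 to 0.13 (Ddit3). Against CNT they were -0.12 to 0.12 (Atf3) and -0.20 to 0.10 (Slc1a4) with curcumin, and -0.19 to 0.016 (Ppp1r15a) and -0.28 to 0.0076 (Slc1a4) with calcitriol. Depth is unknown, so no limit from counting can be given.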
